A study of Mus musculus with 2 samples.

Results

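The genes described here are the cytosolic ribosomal protein genes, chosen by symbol from the deposited FPKM table (symbols that begin with Rpl or Rps and go on with a number, with p and a number, or with a final a, leaving out the S6 kinase genes). The rule used no measured value. It took 95 of the 18919 genes in the table, 58 named for the large subunit and 37 for the small subunit. The data are RNA-seq profiles of mouse intestine. The knockout pool had the genotype APCmin; Setd2IEC-/-, with Setd2 deleted in intestinal epithelial cells while other cells kept the gene, and the control pool had the genotype APCmin. Both pools were C57BL/6 mice at 2 months of age and carried the Min mutation of Apc, which gives rise to intestinal adenomas. Each library came from the mixed RNA of 3 littermates, so there was 1 library per genotype, and every comparison is between single libraries without replicates. Setd2 itself was at 3.47 FPKM and 254 counts in the knockout pool, against 6.87 FPKM and 513 counts in the control pool, a ratio of 0.50 (0.43 to 0.59, 95% counting interval). The promoter that drives the deletion and the region of the intestine are not given in the sources used here.

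Ribosomal proteins bind ribosomal RNA to form the large subunit, which joins amino acids, and the small subunit, which reads the mRNA. Each protein is present once per ribosome in most cases, and the acidic stalk proteins Rplp1 and Rplp2 are known exceptions. Their mRNAs belong to the TOP class, which begin with a cytosine followed by a tract of pyrimidines and whose translation is tuned to nutrient supply by mTOR and the binding protein Larp1. Myc is a known activator of ribosome synthesis, and in the intestinal crypt it acts downstream of the Wnt pathway that Apc restrains.

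The members fell into several kinds. Standard ribosomal proteins accounted for 77 of them, 46 of the large and 31 of the small subunit. The rule does not take every ribosomal protein gene, since some, such as Fau and Rack1, have other symbols. A further 9 rows were paralogues or other copies (Rpl3l, Rpl7l1, Rpl10l, Rpl22l1, Rpl32l, Rpl36al, Rpl39l, Rps4l and Rps27l). Of these, Rps4l is listed by the annotation as a transcribed pseudogene. It is kept among the paralogues here, also where pseudogenes are left out. Other rows described as pseudogenes or retrotransposed copies numbered 8, and Rps19bp1 encodes a protein that binds Rps19 and is not part of the ribosome. An FPKM of 1 or more in at least 1 library, the condition for a gene to count as measured, held for 91 members. The 4 others were Rpl3l (0.44 FPKM in the knockout pool and 0.16 in the control pool), Rpl10l (0.32 and 0), Rpl39l (0.15 and 0) and Rpl32l, listed at 0 in both. Rpl3l is known from striated muscle, and Rpl10l and Rpl39l from testis. They had at most 4 counts in a library, so no fold is given for them.

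The start regions of 8 members are shown because these genes lie at both ends of the range of responses described further on, and because the pyrimidine tract at the start defines the TOP class. They are examples and cannot show whether the length of the run goes with the response. Among standard members the median log2 count ratio was 0.26 with a run of 8 or more and 0.23 with a shorter run. Each line gives 30 bases before and 30 bases from the annotated start, on the coding strand, from RefSeq (GRCm38.p6), and capitals mark the longest unbroken run of C and T in that window. The annotated start is the one the table uses for the gene and can lie some bases away from the start used in the intestine.
Rpl14 (chr9:120571487-120571546, + strand): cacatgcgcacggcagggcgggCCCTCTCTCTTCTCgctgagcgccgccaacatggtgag
Rpl12 (chr2:32961682-32961741, + strand): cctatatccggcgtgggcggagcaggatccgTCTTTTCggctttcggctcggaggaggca
Rpl22l1 (chr3:28805478-28805537, + strand): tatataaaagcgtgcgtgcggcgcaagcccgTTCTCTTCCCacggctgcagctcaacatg
Rps26 (chr10:128626477-128626536, - strand): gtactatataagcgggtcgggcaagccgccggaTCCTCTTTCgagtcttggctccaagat
Rps6 (chr4:86857338-86857397, - strand): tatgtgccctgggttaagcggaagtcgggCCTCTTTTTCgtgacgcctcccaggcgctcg
Rpl39 (chrX:37085193-37085252, - strand): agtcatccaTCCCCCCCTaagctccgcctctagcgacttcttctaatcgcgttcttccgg
Rpl36al (chr12:69184038-69184097, - strand): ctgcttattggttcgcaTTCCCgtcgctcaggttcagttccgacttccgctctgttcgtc
Rpl22 (chr4:152325696-152325755, + strand): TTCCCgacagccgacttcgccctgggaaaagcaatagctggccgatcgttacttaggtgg

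The RefSeq promoter table held 68 of the 95 members, of which 65 were standard members or paralogues. These 65 include Rpl3l, Rpl10l, Rpl32l and Rpl39l, which were not measured, while the other genes set beside them were. Rpl32l and Rpl39l are among the 33 with a run of 8 or more below. In the window from 30 bases before to 30 bases after the start, 33 of these 65 (50.8%) had a run of 8 or more pyrimidines, against 21.5% of 10344 other measured genes and 21.7% of 628 other genes with a mean FPKM of 100 or more. The letters CTTTCC stood in the same window of 15.4% of the members and 2.66% of the other measured genes, CTTTTC in 7.69% and 1.68%, and CTTCCG in 9.23% and 6.76%. TATAAA was found in the 60 bases before the start in 1.54% of the members and 2.08% of the other genes. CCGGAAG, the core of sites for ETS factors such as Gabpa, was searched on both strands from 250 bases before to 50 after the start and was found in 38.5% of the members and 17.8% of the other genes. ATGGCG, part of known Yy1 sites and also a common way for a coding sequence to begin, was found in 29.2% and 15.0%. CACGTG, the E-box that Myc binds, was found in 7.69% of the members and 10.1% of the other genes. Pyrimidine runs can overlap CTTCCGG, the reverse of CCGGAAG. A match describes letters only.

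The ribosomal protein genes were among the most abundant transcripts of both pools. Their expected counts, RSEM's estimates of reads per gene, added up to 267429 of 8646358 in the knockout library, or 3.09% (exact binomial 95% interval 3.08% to 3.10%), and to 229755 of 8809678 in the control library, or 2.61% (2.60% to 2.62%). These intervals, and all others here, cover counting error only and not differences between mice or pools. Because the transcripts are short, their part of the summed FPKM was larger, 8.35% in the knockout pool and 7.03% in the control pool. The 77 standard members had a median of 549.4 FPKM in the knockout pool, with a range of 26.8 to 1420.1, and a median of 469.7 in the control pool, with a range of 22.4 to 1162. In CPM, counts scaled to the library total and not corrected for length, their range was narrower, from 118.1 to 985.04 in the knockout pool and from 116.8 to 826.6 in the control pool.

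**Figure D1:**
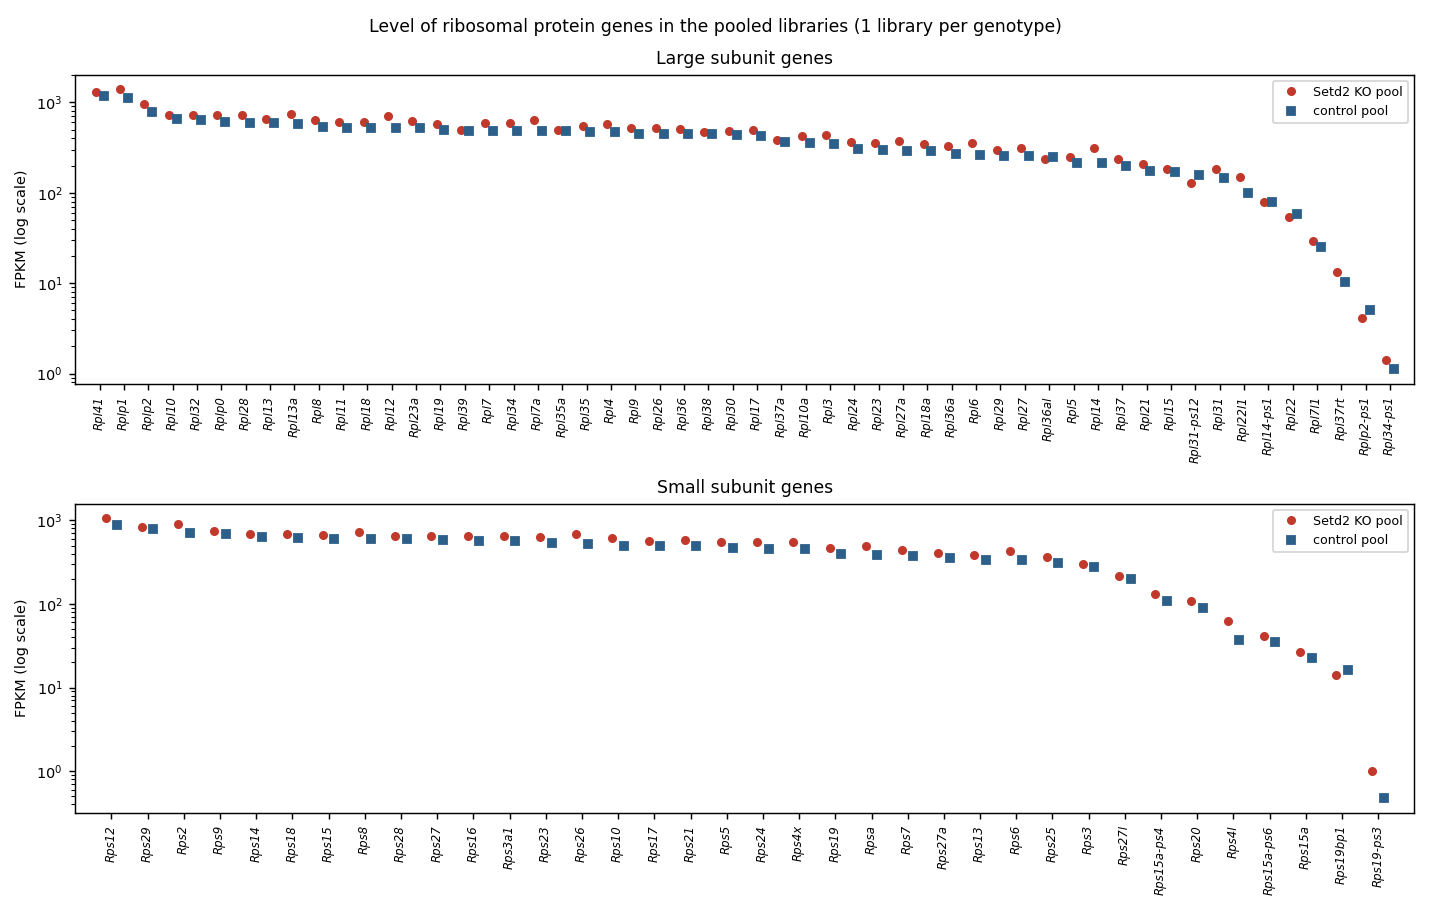
FPKM (log scale) of measured ribosomal protein genes in the Setd2 KO pool (red circles) and the control pool (blue squares), 1 library each, ordered by level in the control pool. Most members lie in a narrow band near the medians of the 77 standard members, 549.4 FPKM in the knockout pool and 469.7 in the control pool, and pseudogenes, some paralogues and genes with long annotated transcripts lie below it.

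The most abundant large subunit transcripts encoded the stalk protein Rplp1, with 1420.1 FPKM in the knockout pool and 1117 in the control pool, the very short bridge protein Rpl41 (1291 and 1162) and the stalk protein Rplp2 (966.7 and 775.4). In the small subunit they encoded Rps12, a protein of the beak of the head (1081 and 892.3), Rps2, which lines the mRNA entry channel (905.8 and 701.9), and Rps29, a zinc-binding head protein (825.98 and 785.7). All 6 were higher in the knockout pool. The lowest standard members by FPKM were Rps15a (26.8 and 22.4), Rpl22 (53.4 and 57.8) and Rps20 (107.4 and 89.7). The authors' files assign lengths of 5158 nt to Rps15a and 3446 nt to Rps20, where the median standard member has 710.0 nt. Rps20 had 3225 counts in the knockout library and 2746 in the control library, within the range of the other members. Rps15a, at 139.7 CPM in the knockout library and 116.8 in the control library, and Rpl22, at 118.1 and 127.9, were low on both scales. The level of Rps15a is uncertain, since its counts (1208 and 1029) are not whole, as in rows that share reads. Together with its pseudogenes it had 2257 counts in the knockout library and 1926 in the control library.

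The libraries differed in more than the ribosomal protein genes, and in bulk tissue more cells of a type and more RNA per cell cannot be told apart. Of 25 markers of absorptive enterocytes, all measured, 1 was above 0 in the log2 ratio of knockout over control FPKM, with 1 FPKM added to both (62.5% of all measured genes were above 0), and their summed level was 27915 FPKM in the knockout pool and 37845 in the control pool. Of 25 proliferation markers 25 were above 0 as deposited and 22 with TMM factors (edgeR's trimmed mean of ratios, which rescales the libraries and leaves 48.4% of all measured genes above 0), with 539.96 FPKM against 387.5, and of 13 stem cell markers 12, with 230.1 against 175.5. Paneth markers were above 0 for 2 of 11 (5837 against 12228 FPKM) and goblet markers for 4 of 9 (3708 against 5107). Markers of exocrine pancreas were above 0 for 21 of 22 measured genes (4526 FPKM in the knockout pool against 2315 in the control pool), of stomach for 9 of 9 (203.8 against 18.5) and of red cells for 4 of 4 (239.2 against 65.5). In the control pool 1, 3 and 1 genes of these 3 lists were at 0. The exception in the pancreas list was Zg16, its most abundant gene, which the goblet list holds too. Without it, a choice made after seeing the data, the pancreas markers summed to 3049 FPKM in the knockout pool and 163.6 in the control pool. B and plasma cell, T cell and smooth muscle markers were above 0 for 3, 4 and 3 of 9 genes each. The part of these cell types in the ribosomal protein results was not tested.

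Transcripts of the family as a whole were higher in the knockout pool, by a small amount. The ratio of summed counts, each scaled to its library total, was 1.19 (95% counting interval 1.18 to 1.19) for all members, 1.19 (1.18 to 1.197) for the large subunit and 1.18 (1.17 to 1.19) for the small subunit. On the same log2 scale, 85 of 91 measured members were above 0, where 62.5% of all 13253 measured genes were. The median log2 ratio was 0.23 for the family, 0.23 for 54 large subunit members and 0.24 for 37 small subunit members, and 0.08 for all measured genes. Below 0 were 6 members (37.2% of all genes were below 0), namely Rpl22, Rpl36al, Rps19bp1 and the pseudogenes Rpl14-ps1, Rpl31-ps12 and Rplp2-ps1. No member was past 2-fold in either direction, where 2.78% of all genes were at least 2-fold higher and 1.28% at least 2-fold lower. The counting interval of the ratio lay above 1 for 75 members, where it did for 28.0% of all genes, and below 1 for 1 member, Rpl31-ps12, where it did for 12.5%. Depth differs in this comparison, and deeper counts give narrower intervals. At least 1000 counts in both libraries were found for 78 of 91 members and 1696 of 13253 genes. Of 770 other genes with a mean FPKM of 100 or more, 236 intervals lay above 1 and 339 below.

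Scaling moved the size of this difference and not its direction. When the libraries were scaled by TMM factors, the median of the family was 0.12, against -0.01 for all measured genes, and 80 members were above 0, where 48.4% of all measured genes were. Under 5 scalings, the deposited one included, 80 members were above 0 each time, 5 were below 0 each time, and 6 changed sign. Those 6 were Rpl35a, Rpl37a, Rpl38, Rpl39, Rps29 and Rpl14-ps1. The distance between the family and all measured genes was 0.14 to 0.15 over these scalings. A scaling shifts all genes by nearly the same log2 amount, so this distance could hardly change.

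**Figure D2:**
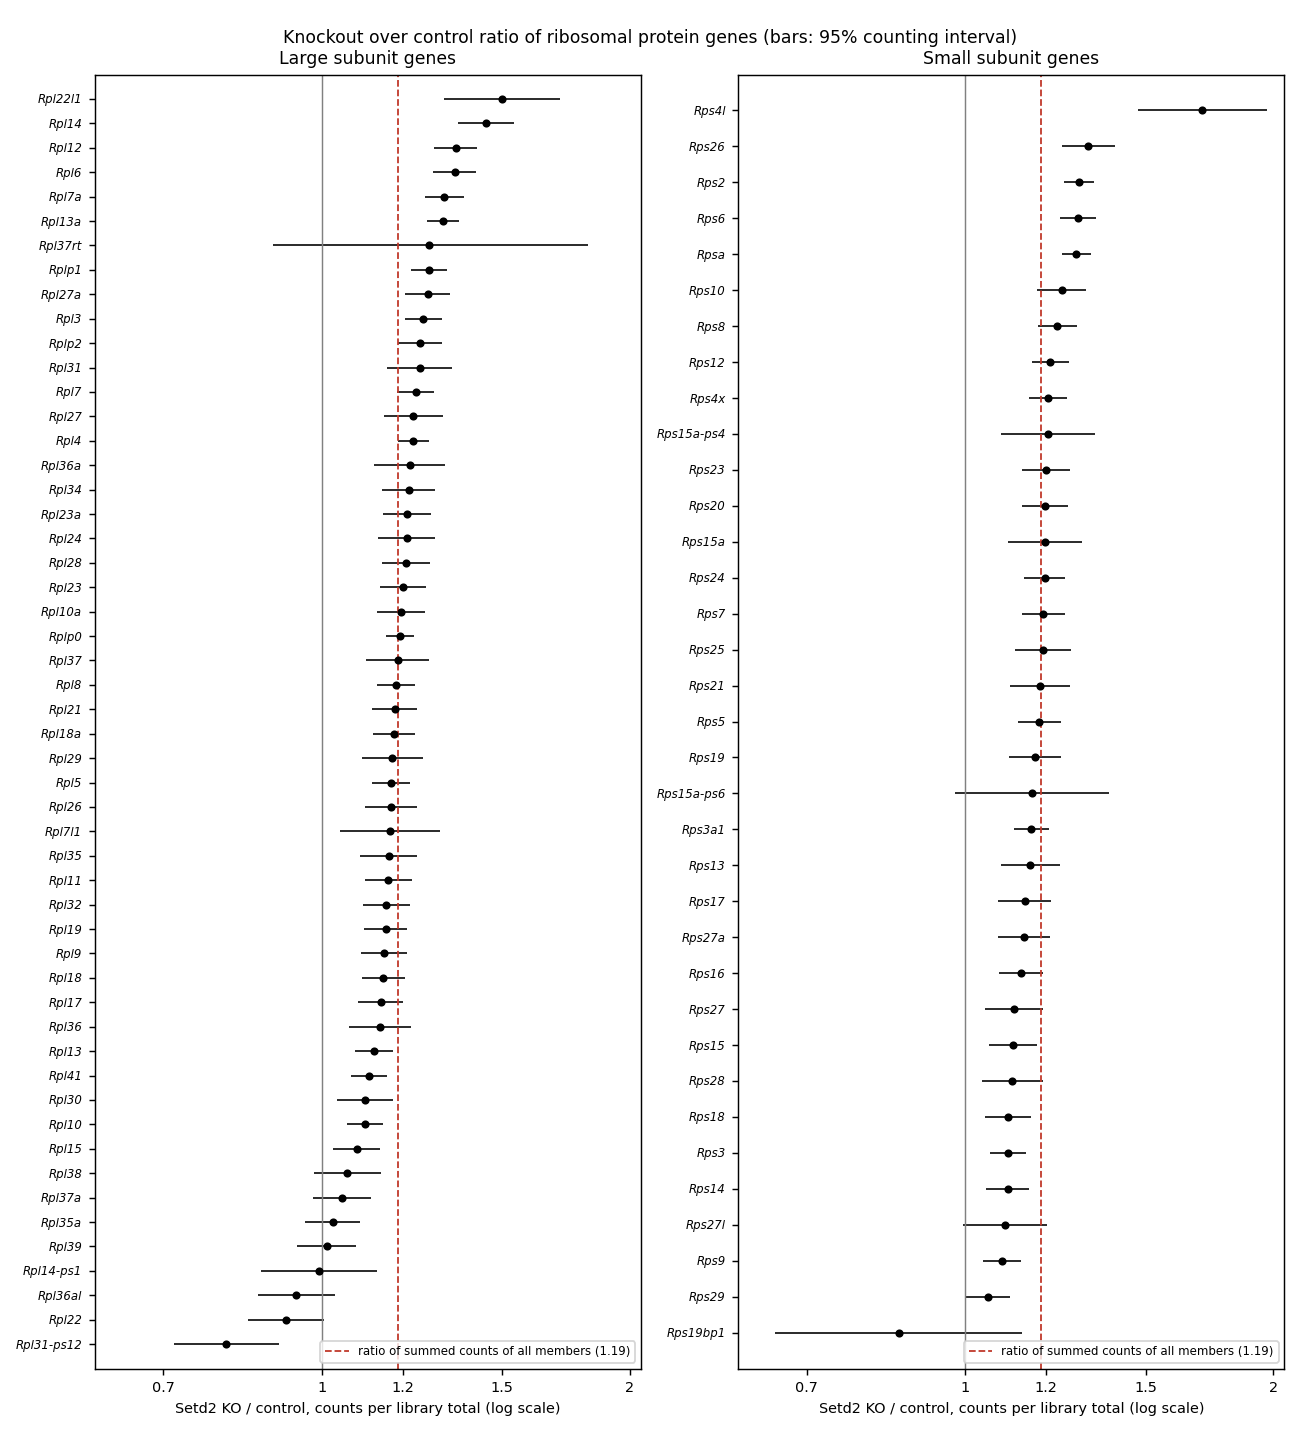
Ratio of Setd2 KO over control, from expected counts scaled to the library totals (log scale), for members with 50 or more counts in the knockout library, large subunit left and small subunit right. Bars are 95% counting intervals, the grey line marks a ratio of 1 and the dashed line the ratio of 1.19 of the summed counts. Most members lie between 1 and the dashed line or just above it, with Rpl22l1 and Rps4l at the top and Rpl31-ps12 at the bottom.

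Other abundant genes lay lower. Of 770 other genes with a mean FPKM of 100 or more, 42.5% were above 0, with a median log2 ratio of -0.04, and of the 196 of these with transcripts of 1000 nt or less, 38.3% were above 0, with a median of -0.06. The 63 members that met both conditions had a median of 0.22, and 61 were above 0. Other complexes of many subunits, chosen by symbol, lay lower. Their symbol rules also took some genes that are not subunits, such as Psmc3ip and the assembly factors Ndufaf1 and Sdhaf1. The mitochondrial ribosome had a median of 0.05 over 77 measured genes, 53 of them above 0, and with TMM factors this median was -0.05 with 31 above 0. The proteasome, which degrades ubiquitin-tagged proteins, had a median of 0.12 over 39 genes, 28 above 0 as deposited and 20 with TMM factors. Genes of the respiratory chain and ATP synthase, assembly factors included, had a median of -0.09 over 93 genes, with 24 above 0. Their ratio of summed counts was 0.94 (0.94 to 0.95).

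**Figure D3:**
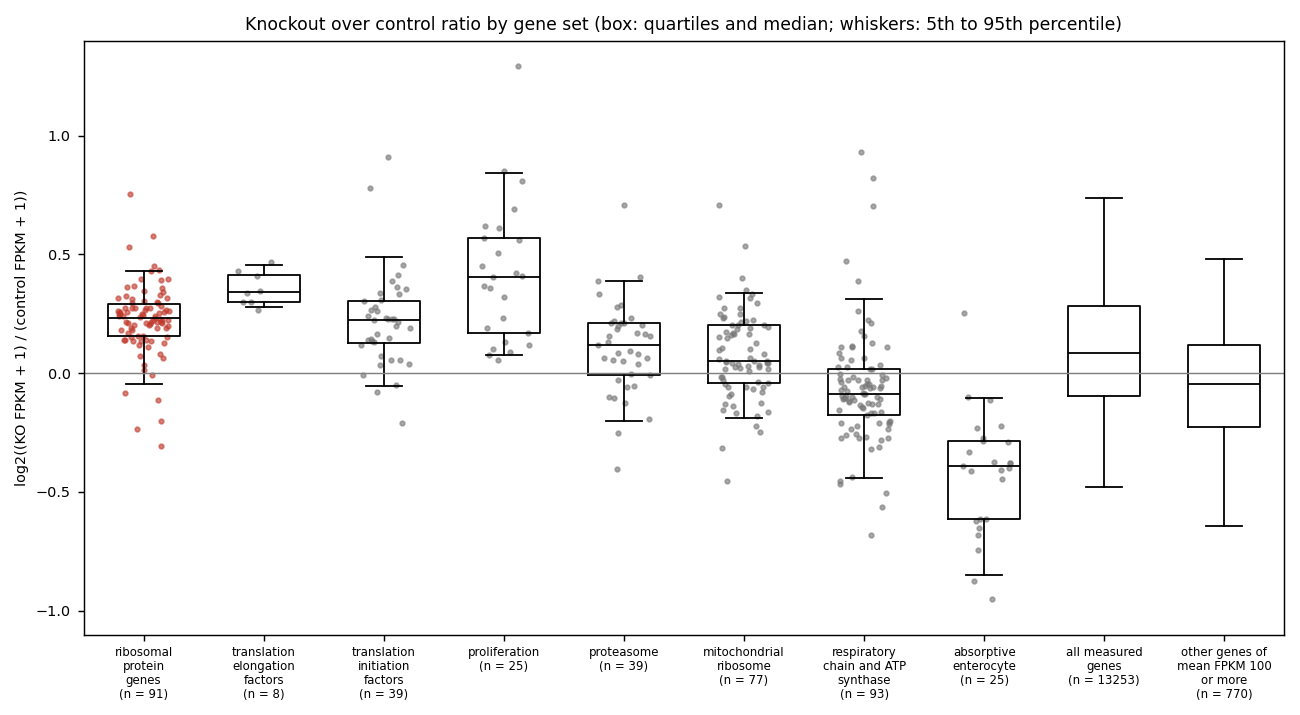
Log2 ratio of Setd2 KO over control FPKM, with 1 FPKM added, for the 91 measured ribosomal protein genes (red), other gene sets (grey points) and, as boxes only, all measured genes and other abundant genes. Boxes show the median and quartiles and whiskers the 5th to 95th percentile. The ribosomal protein genes have a median of 0.23 and a narrow box, other abundant genes a median of -0.04.

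The members kept closer together than genes do in general, though not as close as counting error alone would put them. Among 78 members with 1000 or more counts in both libraries, the standard deviation of the log2 count ratio was 0.11, where counting error gives 0.04. Over 1696 genes of that depth in the whole table it was 0.30, where counting error gives 0.05. The 50 respiratory chain and ATP synthase genes of that depth also had 0.11. The distance of a member from the family does not depend on how the libraries are scaled. By this measure the counting interval of 14 members lay above the family ratio of 1.19 (10.5% of all genes lay above it), that of 21 below (34.2% of all genes), and 56 intervals included it. Of the 14 above, 9 were named for the large and 5 for the small subunit, and of the 21 below, 13 and 8. The 14 include Rps4l, listed as a transcribed pseudogene, and the 21 include Rps19bp1 and the pseudogenes Rpl14-ps1 and Rpl31-ps12.

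In the P stalk, which recruits the GTPases of translation, all of Rplp0, Rplp1, Rplp2 and the stalk base protein Rpl12 had intervals above 1. The counts of such intervals by role, here and below, use the library totals. On that scale 75 of 91 members and 28.0% of all measured genes had them. With TMM factors, where the ratio of summed family counts was 1.10, fewer intervals would lie above 1. Rpl12 (chromosome 2, 32961712 to 32964045) was at 701.9 FPKM in the knockout pool, against 519.4 in the control pool, a count ratio of 1.35 (1.29 to 1.42). Rplp0 had 730.3 and 612.7 FPKM, a ratio of 1.19 (1.15 to 1.23), and so sat at the family's own value. The stalk genes together had a ratio of 1.25 (1.22 to 1.27).

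The 5S particle, in which Rpl5 and Rpl11 hold the smallest ribosomal RNA and from which both can be released to bind Mdm2, had a ratio of 1.17 (1.13 to 1.21). Rpl5 was at 251.7 FPKM in the knockout pool, against 215.3 in the control pool, and Rpl11 at 608.5 against 524.03. Their ratios, 1.17 and 1.16, were nearly equal. Of 10 genes of the p53 response that free ribosomal proteins can set off, 3 were above 0 and the median was -0.02. Of all measured genes 62.5% were above 0, with a median of 0.08. With TMM factors 2 of the 10 were above 0, against 48.4% of all measured genes, and the median was -0.11, against -0.01. Mdm2 itself was at 22.4 FPKM against 27.5, and the highest was Phlda3, at 9.26 against 3.31.

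Of 5 proteins at the catalytic centre and the tRNA sites, all had intervals above 1. Rpl3, which reaches into the peptidyl transferase centre, was at 430.3 FPKM in the knockout pool, against 342.3 in the control pool (ratio 1.26, 1.21 to 1.31). Rpl10, which joins late in assembly and contacts tRNA, was at 724.3 against 657.6 (1.10, 1.06 to 1.15), below the family ratio. Rpl8 (1.18) and Rpl10a of the L1 stalk (1.20) lay near the family. Among the 3 bridge proteins, Rpl41 had 1291 FPKM against 1162 (1.11, 1.07 to 1.16), Rpl30 478.1 against 433.7 (1.10) and Rpl24 365.01 against 301.6 (1.21).

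Along the exit tunnel, through which the nascent chain leaves, 7 of 8 members had intervals above 1. Rpl4, whose long loop lines the tunnel, was at 574.2 FPKM in the knockout pool, against 467.5 in the control pool (1.23, 1.19 to 1.27). Rpl39, a very small tunnel protein, was the exception, at 491.7 against 486.4 (1.01, 0.94 to 1.08). Rpl35, Rpl26, Rpl19 and Rpl17 lay between 1.14 and 1.17.

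Among the other large subunit genes, Rpl14 (chromosome 9) was at 310.9 FPKM in the knockout pool, against 214.9 in the control pool, a ratio of 1.45 (1.36 to 1.54). Its counts and those of its pseudogene Rpl14-ps1 are not whole, as in rows that share reads. The pseudogene was at 79.4 against 79.8, and the sum of both rows had a ratio of 1.35 (1.28 to 1.43), still above the family. Rpl6 had 353.95 FPKM against 262.5 (1.35, 1.28 to 1.41), Rpl7a 633.8 against 481.2 (1.32) and Rpl13a, which in human cells also has a role in silencing inflammatory mRNAs, 750.95 against 572.0 (1.31). Among the standard members of the large subunit, Rpl22 and Rpl39 had the lowest ratios, followed by Rpl35a, at 492.9 FPKM against 480.9 (1.02, 0.96 to 1.09), Rpl37a, at 383.6 against 366.5 (1.05), and Rpl38, the gene of the mouse Tail-short mutation, at 469.1 against 443.1 (1.06, 0.98 to 1.14). The intervals of these 3 include 1 and exclude the family ratio.

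In the small subunit, 5 of 5 measured members at the mRNA entry and decoding centre had intervals above 1, where 28.0% of all measured genes did. As for the other roles, this count is for library totals and depends on the scaling. Rps2 (chromosome 17) was at 905.8 FPKM in the knockout pool, against 701.9 in the control pool, a ratio of 1.29 (1.25 to 1.33). Rps3, its neighbour at the entry channel, had 304.9 against 277.1 (1.10, 1.06 to 1.15). The intervals of Rps2 and Rps3 do not overlap, so the transcripts of these adjoining proteins differed by more than counting error. The counts of Rps2 and Rps3 are not whole, as in rows that share reads. Rps23 (1.20), Rps15 (1.11) and Rps27a, made as a fusion with ubiquitin (1.14), lay between them.

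Of 7 members at the mRNA exit and platform, 7 had intervals above 1. Rps26, which contacts mRNA upstream of the start codon, was at 682.2 FPKM in the knockout pool, against 517.4 in the control pool (1.32, 1.24 to 1.40). Rpsa, also known as a laminin receptor precursor, was at 500.5 against 389.9 (1.28, 1.24 to 1.33). Rps14, whose loss is tied to a human anaemia of the 5q deletion, was at 695.7 against 632.6 (1.10, 1.05 to 1.15), below the family.

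In the head and beak, 8 of 9 members had intervals above 1. Rps10 had the highest ratio of these, at 620.9 FPKM in the knockout pool and 499.9 in the control pool (1.24, 1.18 to 1.31). Rps19, which helps the small subunit mature, was at 464.5 against 397.6 (1.17), and Rps29 at 825.98 against 785.7 (1.05, 0.999 to 1.11). Among the remaining small subunit genes, Rps6, the substrate of S6 kinase, was at 431.9 against 335.2 (1.29, 1.24 to 1.34). Rps9 had 750.1 against 690.1 (1.09, 1.04 to 1.13), below the family. The 11 genes of a list for Diamond-Blackfan anaemia, a human disorder of ribosomal protein dosage, were all above 0 as deposited, with a median of 0.22. On that scale 76 of the 77 standard members and 62.5% of all measured genes were above 0, so the list did not stand out from the family. The intervals of Rpl35a and Rps29 include 1 and their sign depends on the scaling.

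In 3 of the 5 pairs with a measured paralogue, the share of the paralogue differed between the libraries by more than counting error. Rpl22 binds RNA, is dispensable for most translation in mice, and represses Rpl22l1 there. Rpl22l1 (chromosome 3, 28805508 to 28807424) was at 148.8 FPKM in the knockout pool, against 99.3 in the control pool, a ratio of 1.50 (1.32 to 1.71), the highest of the large subunit. Rpl22 (chromosome 4, 152324436 to 152334082) was at 53.4 against 57.8, a ratio of 0.92 (0.85 to 1.01), whose interval includes 1. The share of Rpl22l1 in the counts of the pair was 36.1% (33.8% to 38.6%) in the knockout library and 25.9% (23.7% to 28.1%) in the control library. Counts are not corrected for transcript length, and Rpl22l1 has the shorter transcript. Of the summed FPKM of the pair, Rpl22l1 took 73.6% in the knockout pool and 63.2% in the control pool. The pair together had 1599 and 1520 counts, a ratio of 1.07 (0.999 to 1.15), which lies below the family ratio.

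Rps4l, a copy of the X-linked Rps4x that the annotation lists as a transcribed pseudogene, had the highest ratio of all measured members, at 62.7 FPKM in the knockout pool and 36.8 in the control pool (1.70, 1.47 to 1.97). Rps4x was at 549.6 against 456.2 (1.20, 1.15 to 1.26), and the share of Rps4l in the pair was 9.75% (8.95% to 10.6%) in the knockout library and 7.10% (6.34% to 7.91%) in the control library. Rpl36al had a ratio below 1 whose interval includes 1, at 237.3 against 251.3 FPKM (0.94, 0.87 to 1.03), while Rpl36a was at 326.7 against 268.2 (1.22, 1.12 to 1.32). The share of Rpl36al was 43.5% (41.5% to 45.5%) and 49.8% (47.7% to 51.9%). In the other pairs the shares lay within each other's intervals. Rps27l, a gene that p53 can induce, was at 215.02 FPKM in the knockout pool, against 196.9 in the control pool, beside Rps27 at 646.7 against 580.2, and took 32.5% of the pair in the knockout library and 32.9% in the control library. Rpl7l1 was at 29.2 FPKM against 25, beside Rpl7 at 595.8 against 482.5, and took 12.2% and 12.9% of the counts. Of the summed FPKM of that pair, Rpl7l1 took 4.66% and 4.93%. The paralogues are similar in sequence, and reads that fit both members of a pair are divided by RSEM's estimate. The listed counts of Rpl22, Rpl22l1, Rps4x, Rps4l and Rpl36al were whole numbers in both libraries. Those of Rpl36a were not, at 1326.88 in the knockout library and 1109.88 in the control library.

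**Figure D4:**
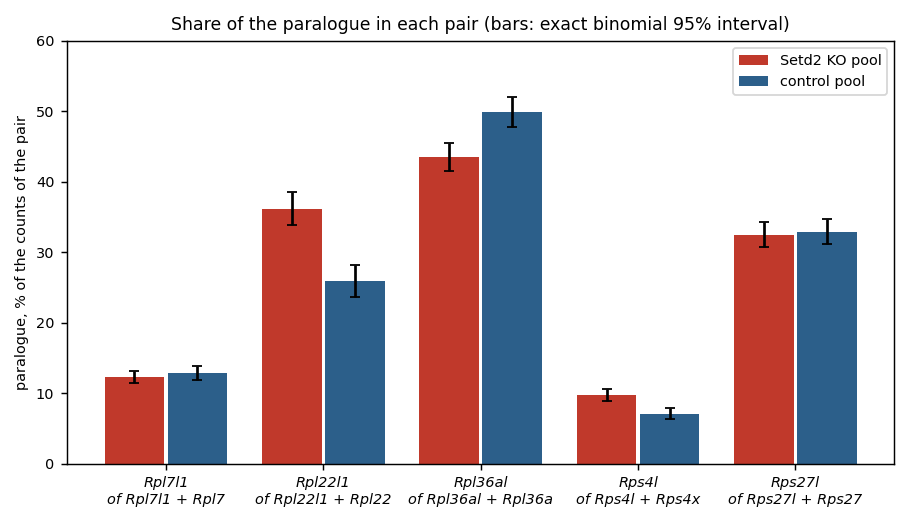
Share of each paralogue in the summed expected counts of its pair (%), in the Setd2 KO pool (red) and the control pool (blue), with exact binomial 95% intervals. Counts are not corrected for transcript length. The share of Rpl22l1 was 36.1% and 25.9%, that of Rpl36al 43.5% and 49.8%, and that of Rps4l 9.75% and 7.10%, and the other 2 pairs overlap.

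Pseudogene rows followed no common course. Rpl31-ps12 was at 127.1 FPKM in the knockout pool, against 157.6 in the control pool (0.81, 0.72 to 0.91), while Rpl31 was at 183.3 against 146.8 (1.25, 1.16 to 1.34). Their sum had a ratio of 1.11 (1.04 to 1.18), and since their counts are not whole, as in rows that share reads, the 2 rows are uncertain one by one. Rps15a with its pseudogenes Rps15a-ps4 and Rps15a-ps6 had 2257 and 1926 counts, a ratio of 1.19 (1.12 to 1.27), and each of the 3 rows was above 0. Rplp2-ps1 had 29.0 and 36.0 counts, Rpl37rt 74.6 and 60.1, Rpl34-ps1 5.77 and 4.57, and Rps19-ps3 3.47 and 1.64, too few to place them. Counts, listed to 2 decimals, were exactly whole in both libraries for 62 of the 91 measured members. Rps19bp1, which is no ribosomal protein, had 98 and 116 counts (0.86, 0.65 to 1.14).

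Members that encode small proteins had lower ratios. The 9 standard members of up to 100 codons had a ratio of summed counts of 1.09 (1.07 to 1.12), the 27 with over 100 and up to 150 codons 1.19 (1.17 to 1.20), and the 12 with over 250 codons 1.24 (1.22 to 1.25). The 2 classes between them, of 19 and 10 genes, had 1.16 and 1.20, so the order was not even. Across the 77 standard members, Spearman's rho of the ratio with coding length was 0.32, with the length in the authors' files 0.29 and with the number of exons 0.34. These properties are linked to each other and the genes share 2 libraries, so the values only describe them. Across 746 other abundant genes rho with coding length was -0.04, across 92 respiratory chain and ATP synthase genes 0.25 and across 39 proteasome genes 0.53. Only the class of 27 held 20 or more genes, and without the 9 smallest members rho with coding length was 0.15 over 68 genes, so the relation rests in part on the smallest class. Among other abundant genes the same 5 classes, from the smallest to the largest, had ratios of summed counts of 0.911, 0.875, 1.16, 1.01 and 0.917, which follow no such order, and median log2 count ratios of -0.18, -0.05, 0.03, 0.02 and -0.05.

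**Figure D5:**
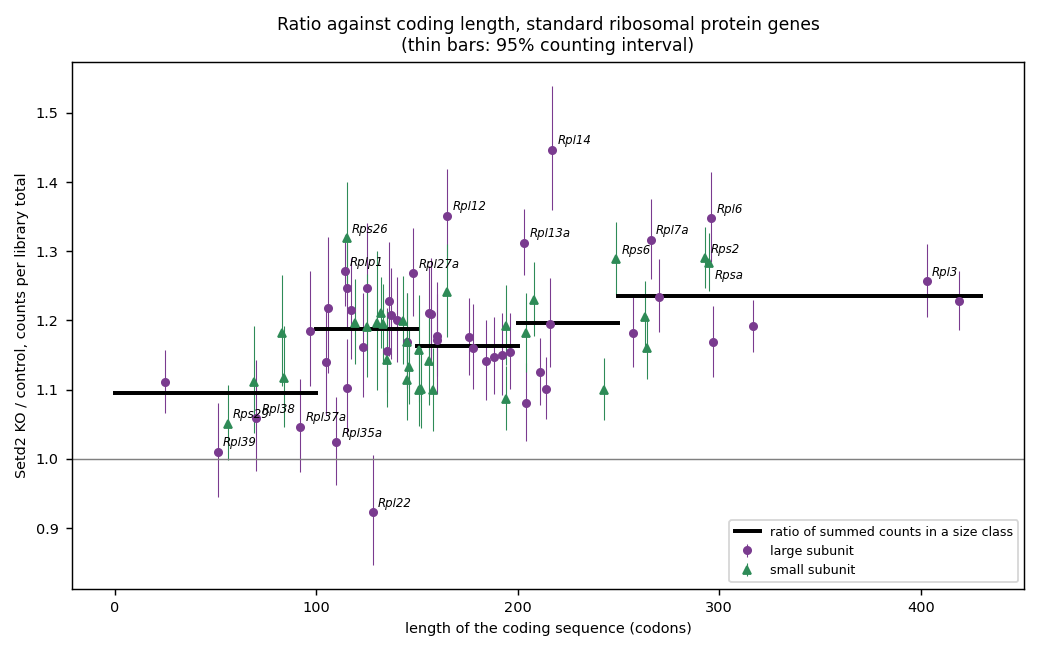
Ratio of Setd2 KO over control, from expected counts scaled to the library totals, against the number of codons in GENCODE's principal transcript for the 77 standard members (circles large, triangles small subunit). Thin bars are 95% counting intervals and thick lines the ratio of summed counts in 5 size classes, from 1.09 in the smallest to 1.24 in the largest.

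Other properties of the genes set the members apart from other genes but divided them little among themselves. Their loci were spread over 19 chromosomes. A snoRNA gene, which guides modification of ribosomal RNA, lay inside 30 of the 77 standard members (39.0%, 58 snoRNA genes in all), against 1.35% of 12040 other measured genes. The hosts had a median log2 count ratio of 0.25 and the 47 non-hosts 0.23. Standard members with a pyrimidine run of 8 or more had a median of 0.26 (29 genes) and those with a shorter run 0.23 (28 genes). With and without CCGGAAG the medians were 0.25 (23 genes) and 0.26 (34 genes). The quartiles of each of these pairs overlap.

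Genes of 2 other lists of translation factors were mostly above 0. Of all measured genes, 62.5% were above 0 as deposited and 48.4% with TMM factors. Counting intervals lay above 1 for 28.0% of all measured genes and below 1 for 12.5%. The elongation list also holds Eef2k, a kinase that inhibits Eef2, and Eef1e1, an auxiliary protein of the tRNA synthetase complex. Of its 8 genes, 8 were above 0 as deposited and under every scaling tried, with a median log2 ratio of 0.34 and 8 intervals above 1. Eef1a1, which brings aminoacyl-tRNA to the ribosome, was at 2278 FPKM in the knockout pool, against 1804 in the control pool (1.26, 1.24 to 1.28), Eef1e1 at 12.2 against 8.55 (1.43) and Eef2, which moves the ribosome along, at 668.7 against 556 (1.20, 1.18 to 1.23). Of 39 initiation factor genes, 35 were above 0 as deposited and 30 with TMM factors, with a deposited median of 0.23. Their intervals lay above 1 for 23 genes and below 1 for 1. The highest was Eif2b1, at 17.8 against 9 FPKM (1.97, 1.63 to 2.40), the lowest Eif2s3x, at 37.8 against 43.8 (0.86, 0.80 to 0.93), and the most abundant Eif1, at 265.8 against 275.04. Among 19 other TOP mRNA genes 18 were above 0, with a median of 0.23, but 10 of them are in the elongation and initiation lists too. Of the other 9, a split made after seeing the data, 8 were above 0. Pabpc1, which binds poly(A) tails, was at 165.9 against 120.7 FPKM (1.37).

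Rack1 and Fau, ribosomal protein genes with other symbols, differed from each other. Rack1, a signalling scaffold on the head of the small subunit, was at 529.7 FPKM in the knockout pool, against 424.9 in the control pool (1.25, 1.20 to 1.30). Fau, a fusion of a ubiquitin-like protein with a small subunit protein, was at 1062 against 1063 (0.995, 0.96 to 1.03), below every standard member but Rpl22.

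Genes that make and regulate ribosomes were less even, and their counts stand beside 62.5% of all measured genes above 0 as deposited and 48.4% with TMM factors. For the transcription of ribosomal RNA, 11 of 14 genes were above 0, 9 with TMM factors, with a median of 0.18, from Cd3eap, an RNA polymerase I subunit gene (5.09 against 2.57 FPKM, 1.98, 1.40 to 2.83), to Taf1a (3.87 against 5.26). Polr1d, the most abundant, was at 76.95 against 75.6. Of 23 genes of growth control 19 were above 0, 14 with TMM factors, with a median of 0.14. Myc was the highest, at 10.04 FPKM in the knockout pool and 5.80 in the control pool (1.73, 1.38 to 2.18), Mtor the lowest, at 4.59 against 5.10 (0.90, 0.78 to 1.04), and Max, the partner of Myc, the most abundant, at 110.6 against 116.7. Of 21 chaperones of ribosomal proteins and late assembly factors, 13 were above 0, a share near that of all genes, with a median of 0.10 that was -0.01 with TMM factors. Lsg1 had the highest ratio (7.67 against 5.34), and Sbds, the gene of Shwachman-Diamond syndrome in humans, the lowest (59.6 against 85.9, 0.69, 0.63 to 0.76), with Eif6, which Sbds helps to release, at 201.99 against 197.1. Of 10 termination and rescue factors 6 were above 0, 5 with TMM factors, also near the share of all genes, with a median of 0.12, from Ltn1 (8.23 against 6.19) to Gtpbp2 (40.1 against 56.99), and Etf1, the release factor, was at 41.9 against 33.8.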

How the data were processed

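Per the labels' protocols, total RNA of intestine was sequenced on a HiSeq instrument, reads were mapped to mm10 and genes quantified with RSEM; the submitters' processing notes name BWA, Bowtie2 and RSEM, with no versions. The authors' deposited FPKM (fragments scaled to transcript length and library size) and deposited expected counts were used as listed, per the file headers, with 0 for genes a library does not list. The transcript lengths are those deposited by the authors.

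Log2 ratios are of knockout over control FPKM after a pseudocount of 1, for the 13253 genes that reached 1 FPKM in either library. Count ratios use expected counts rounded to whole numbers and scaled to library totals, with exact Clopper-Pearson 95% intervals of the knockout share. With 1 library per group, no p-value or standard error was computed, and depth limits only the counting error. Intervals were tested on simulated data. TMM factors came from edgeR 4.0.16 in R 4.3.3, other values from Python 3.11.15 with numpy, pandas and scipy. Positions and promoters are from RefSeq GRCm38.p6, which is mm10, and codons, exons and snoRNA genes from GENCODE M21, matched by symbol.

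The members, lists, role groups and the anaemia list were chosen with earlier results of these data known. Every member may be named. Values are given for the 5 highest and 5 lowest log2 ratios per subunit among members with FPKM of 10 or more, the 3 most abundant, all paralogue pairs, and the extremes of each list, except that some genes are not reported here. The alternatives tried were pseudocounts, filters, scalings and the choice of members.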

Additional observations from a re-analysis of the deposited data

How the results depend on the processing

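The median log2 ratios of the family, the large and the small subunit were 0.23, 0.23 and 0.24 as deposited. Scaling by the median ratio gave 0.15, 0.15 and 0.15, TMM factors 0.12, 0.12 and 0.13, and the total without the 100 highest genes 0.20, 0.20 and 0.21. A pseudocount of 0.1, no filter, a filter of FPKM 10, TPM and leaving out pseudogenes and Rps19bp1 gave medians from 0.23 to 0.26. The ratio of summed counts, 1.19, was 1.10 with TMM factors, 1.16 with the total without the 100 highest genes, 1.17 without the 5 members of the highest counts and 1.19 without pseudogenes and Rps19bp1. Members past 2-fold were 0 in every setting named here. Intervals excluded the family ratio for 35 members and the median member ratio for 39. The cause of the differences between scalings was not tested. The 100 highest genes took up 17.9% of the counts in the knockout library and 19.6% in the control library. No paired analysis was possible because each genotype had 1 library. At this depth the counting interval of a typical member spans several percent, so differences from the family smaller than that were not detectable, and no difference can be separated from differences between pools.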
